A study of Mus musculus with 4 samples.

Results

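Enterochromaffin cells are the serotonin-making endocrine cells of the gut epithelium. They were selected on 3 readouts of each cell barcode: at least 2 unique molecular identifiers (UMIs, one per captured mRNA) of Tph1, at least 2 UMIs of Chga and Chgb together, and under 2 UMIs of Neurog3, the factor of endocrine progenitors. The barcode also had to hold at least 1000 UMIs, at least 500 genes and under 30% mitochondrial UMIs. Of 44576 barcodes, 32872 passed those filters and 248 of them were enterochromaffin cells. Tph1, Chga, Chgb and Neurog3 therefore describe the choice, are given without a test and are left out of the counts over gene lists.

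All tissue was small intestine, taken at 25 weeks of age. Stains of the sort were CD326, CD45, CD31, TER-119 and DAPI. Cells were sorted with gates that the labels do not give, and sequenced by 10x Genomics 3′ single-cell RNA-seq. There were 4 libraries. Wild type 1 and mutant 1 are called set A here, and wild type 2 and mutant 2 set B, because the 2 pairs differed in Cell Ranger version and only set B is titled male. The mutant mice carry a G5081A point change in TrnA, the alanine tRNA gene of mitochondrial DNA, at a load of 77% in mutant 1 and 81% in mutant 2. The load is the share of mitochondrial DNA copies with the change, so the mutant mice also keep unchanged copies. The deposited counts cover 13 mitochondrial mRNAs and no tRNA, so the mutation itself could not be checked. Acute colitis is named in the series title, but no sample label names a colitis treatment. The labels do not say that the libraries came from separate animals, so each p-value measures only the spread between these 4 libraries.

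As background, enterochromaffin cells turn tryptophan into serotonin with Tph1, the rate-limiting enzyme, and Ddc, which removes the carboxyl group. Vesicular transporters load the serotonin into granules built on chromogranins, and the granules are released when chemical or mechanical sensors depolarise the cell. Lmx1a is a LIM homeodomain factor of this lineage, and Tac1 encodes the precursor of substance P. Enterochromaffin cells of the crypt are known for Tac1 and those of the villus for the hormone secretin (Sct).

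Wild type 1, mutant 1, wild type 2 and mutant 2 held 38, 113, 50 and 47 enterochromaffin cells, in that order, which is also the order of values below unless stated. Their median depth was 9822.5, 4219, 7084.5 and 5744 UMIs per cell, so mutant 1 had the most and the shallowest cells. The summed UMIs were 403654, 786041, 459511 and 445556. No barcode was shared between the enterochromaffin cells of any 2 libraries, and at most 3 of them occurred among the filtered barcodes of another library. Doublet scores from scrublet, set to call 0.8% of barcodes per 1000 barcodes, called 1, 19, 5 and 10 of these cells (2.63%, 16.8%, 10% and 21.3%). Of all filtered barcodes, 3.62%, 9.21%, 6.55% and 6.92% were called, so the enterochromaffin share was higher except in wild type 1. The called cells were kept in the main analysis and left out in an alternative.

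The genes that chose the cells were well above their minimum in most of them. The median Tph1 count was 19, 6, 16 and 13 UMIs per cell, with maxima of 101, 50, 123 and 67. The median of Chga plus Chgb was 192, 87, 189 and 177 UMIs. Just inside the Tph1 limit, 30 cells had 2 UMIs of Tph1, and just outside it 41 barcodes had 1 UMI. Lmx1a, which the choice did not use, had a UMI in 22 of the 30 (73.3%) and in 14 of the 41 (34.1%). It had one in 205 of 218 cells (94%) with 3 or more Tph1 UMIs and 32 of 1351 barcodes (2.37%) with none. In the same order the shares were 76.7%, 29.3%, 73.9% and 7.03% for Tac1. For Slc18a1, a vesicular transporter gene, they were 80%, 63.4%, 93.6% and 27.7%, a weaker separation. The 41 barcodes were deeper than the 30 cells (medians of 11250 and 3981.5 UMIs) but had fewer chromogranin UMIs (3 and 52.5). At least 2 Tph1 UMIs without 2 chromogranin UMIs were found in 11 barcodes, and with 2 or more Neurog3 UMIs in 13.

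Of the other markers of the label, Lmx1a was present in most cells and Reg4 in a smaller share. Cells were compared at equal depth by thinning each to 3000 UMIs and leaving out the 36 shallower ones. Lmx1a then had a UMI in 66.7%, 81.2%, 91.7% and 80.4% of enterochromaffin cells, Tac1 in 66.7%, 75.3%, 47.9% and 67.4%, and Reg4, a secreted lectin, in 21.2%, 43.5%, 60.4% and 41.3%. Barcodes rich in enterocyte mRNA and poor in chromogranin, thinned alike, show what free RNA in the droplets can give. At most 0.45% of them held Lmx1a, at most 0.58% held Tac1 and at most 2.62% held Reg4, all below the enterochromaffin shares. Before thinning, their median depth was 3522, 2296, 3532.5 and 3970 UMIs. Tph1 itself had a UMI in 5 of 527, 4 of 655, 10 of 1478 and 6 of 1699 of these barcodes. Wild type 1 had the lowest shares of Lmx1a and Reg4.

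**Figure D1:**
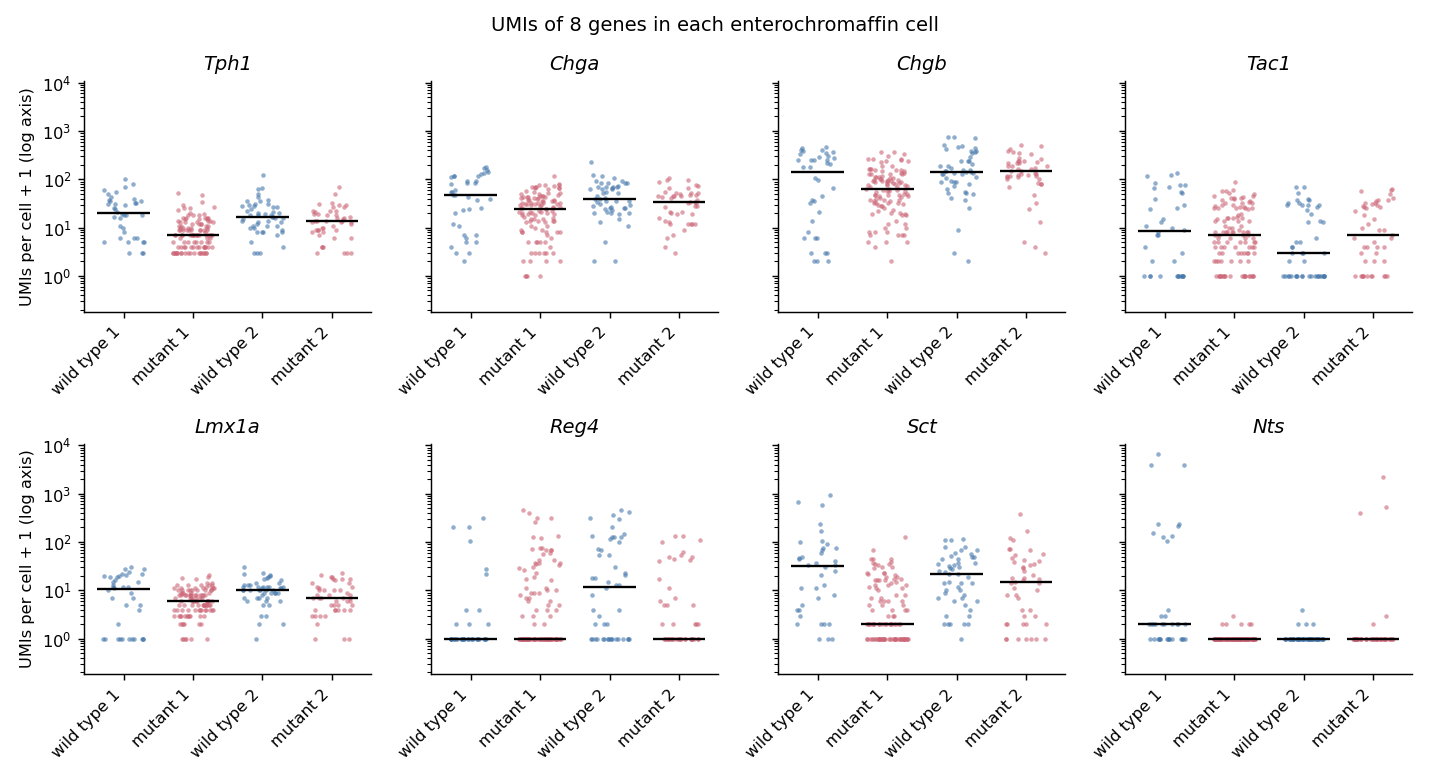
UMIs of 8 genes per enterochromaffin cell, plus 1, on a log axis, by library (wild type blue, mutant red); each point is a cell and each bar the median. Tph1, Chga and Chgb chose the cells; the Nts panel shows 10 cells of wild type 1 and 3 of mutant 2 far above all others.

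A group of 13 cells met the rule but lacked the other enterochromaffin markers. These cells held 100 or more UMIs of Nts, the neurotensin gene of another endocrine cell type, while no remaining cell held more than 3. There were 10 of them in wild type 1, 0 of 113 cells in mutant 1 (which allows a share of up to 2.65%), 0 of 50 in wild type 2 (up to 6%) and 3 in mutant 2. None of the 13 held a UMI of Tac1, Lmx1a or Reg4, which at their depth (medians of 4134.5 UMIs in wild type 1 and 5410 in mutant 2) allows up to 23.1% of such cells to have a UMI of each, and sets no limit on cells that express it. Among the other 235 cells, Lmx1a was found in 227 (96.6%), Tac1 in 184 (78.3%) and Reg4 in 119 (50.6%). All 13 held Sct, at a median of 63.5 UMIs in wild type 1 and 107 in mutant 2. Their median Chgb was 3.5 and 4 UMIs, against 248.5 and 153.5 in the remaining cells of the same libraries, and their median Tph1 was 7.5 and 2. Slc18a1, the vesicular monoamine transporter of endocrine cells, had a UMI in 8 of the 10 and in all 3. Scrublet called 1 of the 13. For these cells the markers go against the label, and they are called Nts-high cells below. They carried 15693 of the 15710 Nts UMIs of wild type 1 and 3158 of the 3161 of mutant 2.

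Promoter sequence is shown for 3 marker genes that share a homeodomain motif, since the homeodomain factor Lmx1a was among the genes that separated these cells from other endocrine cells. RefSeq windows on GRCm38.p6 from 250 bases before to 50 bases after a transcript start were searched for TAATTA, a core that many homeodomain proteins bind, and for CAGATG or CATCTG, an E-box of the type bound by Neurod1. TAATTA reads alike on both strands, and the E-box was searched on both. Capitals mark the matches, and each sequence runs 5′ to 3′ on the gene's strand. The Tph1 window lies at chr7:46667328-46667627 on the minus strand, at a start inside the gene (chr7:46644641-46672537 in GENCODE vM21), and the window at its first start, chr7:46672488-46672787, held neither motif. The Tac1 window lies at chr6:7554811-7555110 and the Reg4 window at chr3:98221906-98222205, both on the plus strand.
Tph1: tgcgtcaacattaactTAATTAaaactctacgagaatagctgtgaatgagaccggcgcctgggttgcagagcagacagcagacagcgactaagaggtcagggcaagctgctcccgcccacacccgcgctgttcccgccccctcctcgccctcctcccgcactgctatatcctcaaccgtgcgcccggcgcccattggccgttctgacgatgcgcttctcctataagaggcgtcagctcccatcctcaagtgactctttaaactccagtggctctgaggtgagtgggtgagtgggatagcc
Tac1: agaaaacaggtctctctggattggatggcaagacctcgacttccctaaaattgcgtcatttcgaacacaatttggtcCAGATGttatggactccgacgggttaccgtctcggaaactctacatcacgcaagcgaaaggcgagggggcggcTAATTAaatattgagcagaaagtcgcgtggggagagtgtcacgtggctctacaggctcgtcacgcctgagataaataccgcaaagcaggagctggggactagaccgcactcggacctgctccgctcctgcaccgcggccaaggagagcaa
Reg4: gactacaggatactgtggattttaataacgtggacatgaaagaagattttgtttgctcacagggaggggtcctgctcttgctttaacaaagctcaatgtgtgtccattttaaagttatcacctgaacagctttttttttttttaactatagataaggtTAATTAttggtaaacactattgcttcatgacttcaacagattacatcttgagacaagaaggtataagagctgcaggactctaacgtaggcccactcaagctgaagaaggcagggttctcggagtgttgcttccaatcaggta
The Lmx1a window (chr1:167689308-167689607, plus strand) held neither motif. On mm10, with GENCODE vM21, the protein-coding genes themselves span chr6:7554879-7565834 (Tac1), chr3:98222156-98236748 (Reg4), chr1:167689237-167848741 (Lmx1a), chr8:69037711-69089235 (Slc18a1) and chr7:141278330-141279133 (Sct). Over all 32851 windows, 5.29% held TAATTA and 17.2% the E-box. A match describes letters in the window and not a bound site.

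To ask what sets enterochromaffin cells apart within the endocrine lineage, their summed UMIs were compared with those of Tph1-low cells of the same libraries. That class passed the same filters with 2 or more chromogranin UMIs, under 2 Neurog3 and under 2 Tph1 UMIs. It held 1392 barcodes, but with a median of only 2 to 3 chromogranin UMIs per library, and median depths of 9394 to 29703 UMIs. The edgeR quasi-likelihood test with the library as a term called 4424 of 11119 genes (39.8%) at a Benjamini-Hochberg adjusted p under 0.05. All 8 enterocyte markers, all 6 Paneth markers tested and 46 of 47 nuclear respiratory chain genes were among those lower in enterochromaffin cells. Both classes were therefore also limited to 10 or more UMIs of Chga plus Chgb, a limit added after those values were seen. This left 31, 104, 48 and 45 enterochromaffin and 72, 101, 83 and 85 Tph1-low cells. With this limit 1213 of 8729 genes (13.9%) were called, 595 higher (6.82%) and 618 lower (7.08%) in enterochromaffin cells, and 611 of them, 50.4% of this list and 13.8% of the larger one, were called in the same direction in both fits. Between 788 and 1109 genes were called with 1 library left out, the fewest without mutant 2, and DESeq2 called 708. The values below come from the limited classes, as log2 ratios with the SE of the edgeR fit over 4 libraries. In summed cells, a lower level in each cell and fewer cells with the gene cannot be told apart.

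Both vesicular monoamine transporters were higher in enterochromaffin cells. Leaving out Tph1, 4 of 13 genes of serotonin synthesis, storage and breakdown were called higher and 1 lower, against 6.82% and 7.08% of all genes. Their median log2 ratio was 0.27 against -0.01 over all genes tested. Slc18a1 stood at 680, 479, 700 and 494 UMIs per 1000000 (CPM) in enterochromaffin cells and at 109, 122, 92.0 and 120 CPM in Tph1-low cells, with no overlap (log2 ratio 2.35 ± 0.17 SE, edgeR adjusted p = 1.63e-07). Slc18a2, the second vesicular monoamine transporter, was rarer, with 14, 63, 23 and 17 UMIs in enterochromaffin cells and 1, 5, 2 and 5 in Tph1-low cells of the limited classes (log2 ratio 3.99 ± 0.36). Also called higher were Qdpr, which recycles the tetrahydrobiopterin cofactor (0.77 ± 0.14), and Maob, a monoamine oxidase (1.68 ± 0.29). Maob in all enterochromaffin cells, at 44.5 to 74 CPM, overlapped the 33.7 to 121 CPM of enterocyte-rich barcodes, so it was not above their level. That level can hold the enterocytes' own mRNA as well as free RNA, and these were not told apart. Ddc did not pass the test (0.27 ± 0.14, edgeR adjusted p = 0.28) and had a UMI in 72.7% to 77.1% of thinned enterochromaffin cells and 74.6% to 81.5% of Tph1-low cells. The serotonin reuptake transporter Slc6a4 was lower (-1.81 ± 0.39), with 1 to 8 UMIs per library in enterochromaffin cells, or 2.24 to 10.9 CPM, below the 23.7 to 37.1 CPM of enterocyte-rich barcodes. Maoa stood at 71.8 to 148 CPM against 428 to 781 CPM in those barcodes and cannot be told from free RNA here.

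Granule genes moved both ways. Without Chga and Chgb, 6 of 25 genes tested were called higher and 5 lower (median -0.22), against 6.82% and 7.08% of all genes. In the wider classes 21 of 25 were higher and 1 lower, against 2131 and 2293 of all 11119 genes. The small GTPase Rab3c, which acts in granule release, had 384, 746, 533 and 447 UMIs in enterochromaffin cells and 8, 65, 51 and 57 in Tph1-low cells (log2 ratio 4.70 ± 0.37, edgeR adjusted p = 3.73e-07). Snap25, a SNARE protein of vesicle fusion, was higher by 2.24 ± 0.20, and the prohormone convertase Pcsk1 by 0.90 ± 0.15. Lower were Scg2, a granin (-4.40 ± 0.51), and Cpe, the carboxypeptidase that trims prohormones (-1.49 ± 0.18). Each library showed the lower Cpe, at 1160, 480, 499 and 523 CPM against 2020, 1713, 1674 and 1447 CPM.

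Peptide genes separated the classes most. Of 12 tested, 3 were called higher and 8 lower (median -5.08), against 6.82% and 7.08% of all genes. Tac1 stood at 2733, 2041, 1569 and 1652 CPM in enterochromaffin cells and at 34.2, 245, 36.8 and 46.6 CPM in Tph1-low cells (log2 ratio 4.89 ± 0.40). Reg4 stood at 2314, 4256, 8513 and 1974 CPM against 12.3, 155, 44.9 and 201 CPM (5.60 ± 0.58). Afp, alpha-fetoprotein, had 25, 926, 445 and 92 UMIs against 0, 2, 0 and 5 (8.19 ± 0.44). All 3 kept apart in every library, although mutant 1 had the highest Tph1-low level of Tac1. Cartpt, a neuropeptide gene outside the list, had 20, 40, 100 and 40 UMIs in enterochromaffin cells and none among 4342068 UMIs of Tph1-low cells, at least 148-fold higher with 3 counts over the class as the floor.

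Of the hormones of other endocrine cells, Sst, Gip, Gcg and Pyy were near absent, and Ghrl and Cck were lower. Sst (somatostatin) had 1, 0, 2 and 1 UMIs in enterochromaffin cells against 11887, 3084, 11546 and 4927 in Tph1-low cells (log2 ratio -11.58 ± 0.38), and Gip had 5 to 26 UMIs per library against 26972 or more (-10.56 ± 0.41). Gcg, Pyy, Ghrl and Cck were lower by fitted log2 ratios of -9.17, -9.05, -5.94 and -5.59, with no overlap between the classes. The Gip level of all enterochromaffin cells, 11.2 to 38.2 CPM, overlapped the 14.9 to 88.3 CPM of enterocyte-rich barcodes, so these UMIs were not above background. Cck was above its background in 3 libraries, at 218, 177, 15.2 and 278 CPM against 15.1, 10.5, 14.5 and 4.99. Nts was not called (-4.57 ± 2.17, edgeR adjusted p = 0.21), and its UMIs in wild type 1 and mutant 2 lay almost all in the Nts-high cells.

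Sct was present in both classes. It was lower in enterochromaffin cells of the limited classes (-2.47 ± 0.33, edgeR adjusted p = 8.1e-05), but by only -0.27 ± 0.44 in the wider classes (adjusted p = 0.66). The thinned share with a UMI was 84.8%, 54.1%, 83.3% and 80.4% in enterochromaffin cells, 91.0% to 95.3% in Tph1-low cells and 7.34% to 24.5% in enterocyte-rich barcodes. Its per-cell median, at unequal depth, was 30.5, 1, 21 and 14 UMIs, lowest in mutant 1, which also had the shallowest cells. Without Nts-high cells the median was 10 in wild type 1 and 13 in mutant 2. Several listed peptides were hardly seen: Gal, Penk and Insl5 had no UMI in any enterochromaffin cell, and Gast and Adm had 1 UMI per library at most.

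Among transcription factors other than Neurog3, 4 of 23 tested were called higher and 9 lower (median -0.22), against 6.82% and 7.08% of all genes. In the wider classes 17 of 23 were higher and 4 lower, against 2131 and 2293 of all 11119 genes. Lmx1a had 374, 630, 498 and 348 UMIs in enterochromaffin cells and 0, 76, 28 and 18 in Tph1-low cells (log2 ratio 5.21 ± 0.53, edgeR adjusted p = 5.6e-06). Mnx1, a homeodomain factor, was higher by 2.36 ± 0.37, Foxa1, a forkhead factor, by 1.85 ± 0.20, and Myt1, a zinc finger factor, by 0.72 ± 0.15. Among the lower was Isl1, a LIM homeodomain factor of peptide-hormone cells, with 18, 12, 0 and 24 UMIs against 896, 471, 569 and 684 (-4.47 ± 0.36). Pax6, a paired-box factor, had 50, 30, 15 and 21 UMIs against 483, 176, 299 and 270 (-2.21 ± 0.22), and Rfx6, a winged-helix factor, was lower by -1.52 ± 0.17. Hhex, known in somatostatin cells, had 1 UMI in enterochromaffin cells and 191 in Tph1-low cells, an 85.9-fold difference (95% counting interval 15.2 to 3411). Pdx1, the factor of the proximal gut, had 0 and 94 UMIs, at least 14.1-fold lower.

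The TAATTA core shown above was counted in promoters of all genes of this comparison. It was held by 6.82% (30 of 440 with a RefSeq window) of genes called higher and 2.36% (11 of 466) of genes called lower. Of the 6947 tested genes with a window 3.3% held it, and of all 27025 genes with a window 6.12%. For the E-box the shares were 14.8%, 17%, 12.8% and 19.2%, in the same order. These are counts, with no test of the difference.

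Sensors and receptors split into 7 called higher and 6 lower of 20 tested (median -0.16), against 6.82% and 7.08% of all genes. The irritant channel Trpa1 had 16, 141, 131 and 45 UMIs in enterochromaffin cells against 7, 16, 6 and 19 (log2 ratio 3.61 ± 0.32), and the cation channels Trpm2 and Trpc4 were higher by 3.94 ± 0.32 and 3.69 ± 0.27. The voltage-gated sodium channel Scn3a was higher by 2.29 ± 0.19, at 901, 674, 1042 and 866 against 116, 208, 234 and 151 CPM. The short-chain fatty acid receptor Ffar2 was higher by 1.68 ± 0.24 and the somatostatin receptor Sstr1 by 2.07 ± 0.30. Receptors for longer lipids went the other way: Ffar1 by -3.20 ± 0.46, Ffar4 by -2.59 ± 0.28, and Gpr119 with 1 UMI against 206 (92.7-fold, 95% counting interval 16.5 to 3678). Asic5, an ion channel gene, had 3 UMIs against 928 (139-fold, interval 47.5 to 676). Piezo2, a mechanosensor, had 1 UMI in the 248 cells, so its level was not measurable at this depth.

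Outside the lists, the largest differences upward included Dlg2, a synaptic scaffold (6.97 ± 0.30), Slc38a11, an amino acid transporter family member (5.69 ± 0.35), Iqsec1, an Arf exchange factor (5.17 ± 0.27), Tpbg, the trophoblast glycoprotein (5.0 ± 0.33), and Trpc7, a cation channel (4.95 ± 0.40). Downward they included Fabp5, a fatty acid binding protein (-6.26 ± 0.28), Abcc8, the sulfonylurea receptor (-6.20 ± 0.33), and Cnr1, a cannabinoid receptor with 1 UMI against 644 (290-fold, 95% counting interval 51.8 to 11460). Of 47 nuclear respiratory chain genes 0 were called, against 4 at an unadjusted p under 0.05, and of 13 mitochondrial mRNAs 2 were called higher, mt-Nd4l (0.67 ± 0.13) and mt-Nd3 (0.53 ± 0.15). Among markers of other cell types, 0 of 7 goblet and 0 of 5 cycling markers were called, 3 of 6 Paneth markers were higher, and 1 of 7 enterocyte markers was higher and 1 lower. Their part in the result was not tested.

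**Figure D2:**
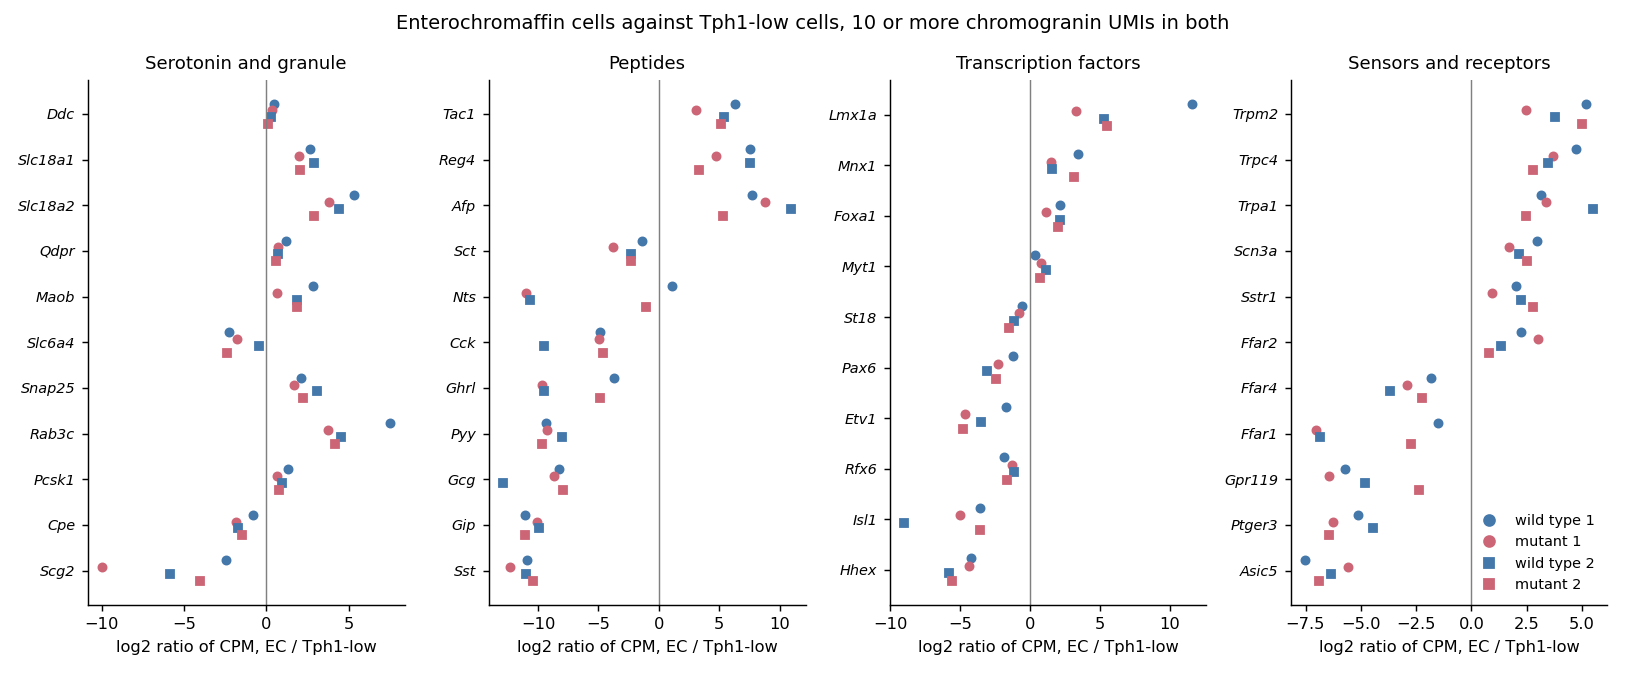
Log2 ratio of CPM between enterochromaffin and Tph1-low cells in each library (circles set A, squares set B), with 10 or more chromogranin UMIs in both classes and 0.5 UMIs added to each sum. Slc18a1, Rab3c, Tac1, Reg4, Afp, Lmx1a and Trpa1 lie right of 0 in all 4 libraries, and Sst, Gip, Gcg, Pyy, Isl1 and Asic5 left of it.

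Enterochromaffin cells also differed among themselves by Tac1. After thinning to 3000 UMIs, 20, 57, 19 and 26 cells held 2 or more Tac1 UMIs (Tac1-high) and 11, 21, 25 and 15 held none (Tac1-zero), with 2, 7, 4 and 5 cells at exactly 1 left out. The edgeR fit with the library as a term called 90 of 1200 genes (7.5%), 36 higher in Tac1-high cells (3%) and 54 lower (4.5%). Most Tac1-zero cells of wild type 1 were Nts-high, and without those cells and that library 119 of 1448 genes (8.22%) were called. Tac1 chose the classes and has no test. The count was 49 without mutant 2, 56 by DESeq2, 180 without scrublet-called barcodes and 197 at 5000 UMIs.

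Vim, the intermediate filament vimentin, had 62, 121, 45 and 53 UMIs in Tac1-high cells and 0, 0, 0 and 1 in Tac1-zero cells. This is a 166-fold difference with a 95% counting interval of 29.5 to 6573. Of 12 transcription factors tested, 4 were higher: Fev, an ETS factor of serotonin cells (log2 ratio 3.0 ± 0.52, edgeR adjusted p = 0.0012), Nkx2-2, a homeodomain factor of endocrine cells (2.36 ± 0.39), Rfx6 (1.52 ± 0.39) and Rfx3 (1.36 ± 0.33). The 1 lower was Peg3 (-1.55 ± 0.33). Fev had a UMI in 45%, 36.8%, 36.8% and 53.8% of Tac1-high cells and in 0 of 11, 2 of 21, 2 of 25 and 2 of 15 Tac1-zero cells. Of 4 serotonin genes tested 2 were higher, Ddc (1.57 ± 0.36) and Gch1, the first enzyme of cofactor synthesis (1.22 ± 0.34), while Slc18a1 was not called (0.33 ± 0.35). Ddc stood at 1600, 1614, 1561 and 1654 CPM in Tac1-high cells against 273, 476, 520 and 733 CPM, a narrow range among the first. Atf6, an endoplasmic reticulum stress factor (3.0 ± 0.43), Gstt1, a glutathione transferase (2.68 ± 0.44), the muscarinic receptor Chrm3 (2.48 ± 0.58), Gars, the glycyl-tRNA synthetase (2.40 ± 0.41), and Rab3c (2.10 ± 0.41) were higher too.

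Genes lower in Tac1-high cells included an ectoenzyme and a brush border transporter. Of 16 granule genes tested, 1 was higher (Rab3c) and 2 were lower (Syt7 and Pcsk1n), with a median of -0.04. Without wild type 1 and the Nts-high cells, 1 of 16 was higher and 1 lower, with a median of 0.33. Nt5e, the ectoenzyme that makes adenosine, stood at 117, 105, 70.2 and 25.6 CPM in Tac1-high cells and at 1303, 286, 893 and 667 CPM in Tac1-zero cells (log2 ratio -3.19 ± 0.42). Slc15a1, the brush border peptide transporter, was lower in Tac1-high cells by -2.14 ± 0.39, Klf4, a factor of differentiated epithelium, by -1.88 ± 0.37, Gpx3, a secreted glutathione peroxidase, by -2.73 ± 0.43, and the exocytosis sensor Syt7 by -1.75 ± 0.32. Sct had a UMI in 75%, 52.6%, 68.4% and 73.1% of Tac1-high and in 100%, 66.7%, 92% and 93.3% of Tac1-zero cells, lower in Tac1-high cells of each library, but the difference did not pass the test (-1.47 ± 0.52, edgeR adjusted p = 0.097). Sct passed in DESeq2 (-1.45, adjusted p = 0.0276) and in edgeR without scrublet-called barcodes (-1.47, adjusted p = 0.0312), and its ratio was -0.81 (edgeR adjusted p = 0.295) without wild type 1 and the Nts-high cells. Cck went the other way in each library, with a UMI in 35%, 36.8%, 5.26% and 34.6% against 18.2%, 4.76%, 0% and 6.67%, and was not called. Reg4 was lower in Tac1-high cells of 3 libraries and higher in wild type 1 (-0.56 ± 0.90, not called), and without wild type 1 and the Nts-high cells it was lower in Tac1-high cells (-1.64 ± 0.48, adjusted p = 0.016), as were Cartpt (-4.18 ± 0.50) and Afp (-2.03 ± 0.46). Lmx1a did not pass the test (0.76 ± 0.44, edgeR adjusted p = 0.36). Its ratio was 0.18 without wild type 1 and the Nts-high cells, and in wild type 1 it had a UMI in 90% of Tac1-high against 18.2% of Tac1-zero cells. Markers of other cells moved with the split: 4 of 4 enterocyte markers tested (Sis, Fabp1, Fabp2 and Apoa1) and 3 of 6 goblet markers (Tff3, Agr2 and Fcgbp) were lower in Tac1-high cells. Apoa1 went that way in 3 of 4 libraries and Fabp1 in 2 of 4, and the part of such RNA in the other differences was not tested.

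**Figure D3:**
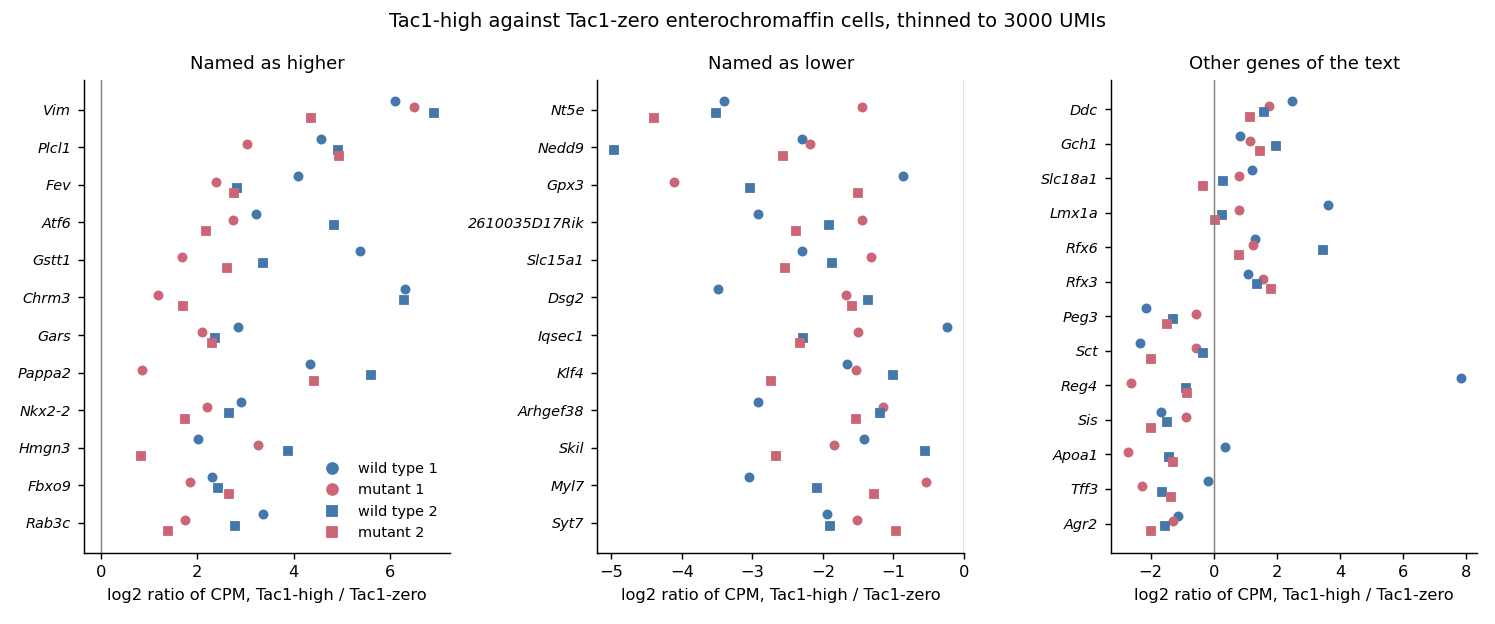
Log2 ratio of CPM between Tac1-high and Tac1-zero enterochromaffin cells in each library after thinning to 3000 UMIs, with 0.5 UMIs added to each sum; circles are set A and squares set B, wild type blue and mutant red. Vim, Fev and Nkx2-2 lie right of 0 and Nt5e and Syt7 left of it in all 4 libraries, while Reg4 is spread on both sides.

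Whether the mutation changes how many enterochromaffin cells there are was asked over libraries. They made up 0.838%, 0.982%, 0.611% and 0.544% of filtered barcodes, with exact 95% Clopper-Pearson intervals of 0.594% to 1.15%, 0.81% to 1.18%, 0.454% to 0.804% and 0.4% to 0.722%. The mutant mean was 0.763% ± 0.310 (SD, n = 2) and the wild-type mean 0.724% ± 0.161 (SD, n = 2), a difference of 0.0385 percentage points (exact two-sided permutation p = 1). Within sets it went opposite ways, by 0.144 (set A) and by -0.067 (set B). With 2 libraries a genotype the smallest p this test can give is 0.333. With barcodes thinned to 3000 UMIs and shallower ones left out, the shares were 0.828%, 0.696%, 0.634% and 0.58%, and the difference was -0.093. All intervals cover counting error only.

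As a share of barcodes with 2 or more chromogranin UMIs, they were 9.67%, 21.9%, 15% and 11.8%. The mutant mean was 16.9% ± 7.11 and the wild-type mean 12.3% ± 3.75 (SD, n = 2 each; exact permutation p = 0.667), with a difference of 12.2 points in set A and -3.13 in set B. Thinning to 3000 UMIs left out all shallower barcodes, among them 5, 28, 2 and 1 enterochromaffin cells. After thinning, 33, 66, 42 and 42 enterochromaffin cells met the rule. The 4 libraries then stood at 27.0%, 27.2%, 26.4% and 26.6%. Intervals were wide, from 19.4% to 35.8% in wild type 1 and with like widths in the others. The difference between genotypes was then 0.139 points (exact permutation p = 0.667). With 10 or more chromogranin UMIs and no thinning, mutant 1 again stood apart, at 50.7% against 30.1%, 36.6% and 34.6%. The median depth per filtered barcode was 21250, 9861, 11236 and 11030 UMIs, so mutant 1, with the highest share, was the shallowest library. In set B, mutant 2 was shallower than wild type 2 and had the lower share before thinning. The part of depth in these shares was not tested.

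**Figure D4:**
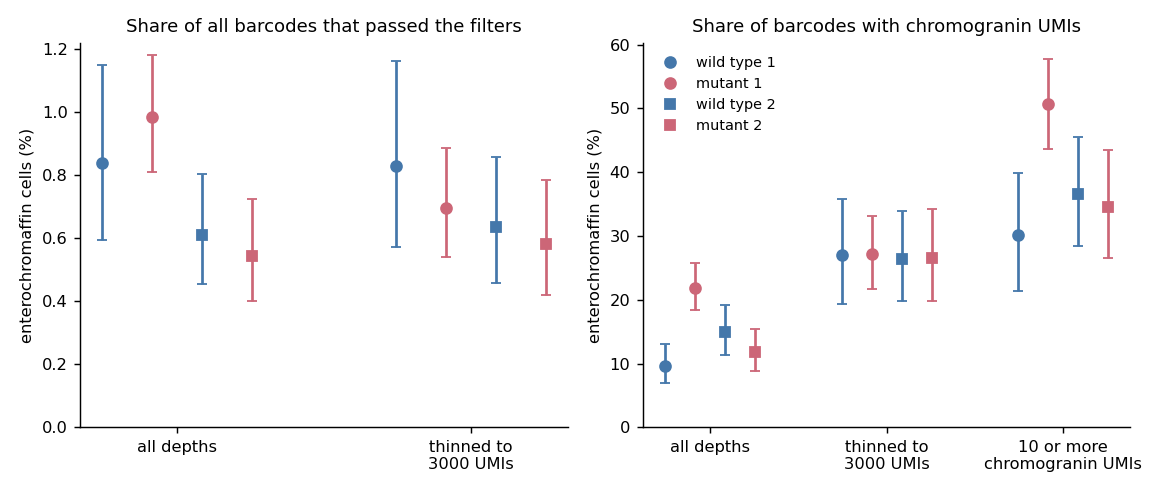
Enterochromaffin cells as a percent of filtered barcodes (left) and of barcodes with chromogranin UMIs (right), by library, with exact 95% Clopper-Pearson intervals. The shares among chromogranin barcodes run from 9.67% to 21.9% at all depths. They run from 26.4% to 27.2% when barcodes are thinned to 3000 UMIs and shallower ones are left out.

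The mitochondrial share of enterochromaffin UMIs overlapped between genotypes when all cells were used. It was 3.29%, 3.98%, 4.74% and 4.18%, so both mutants lay between the wild types (mutant 4.08% ± 0.141, wild type 4.01% ± 1.03, SD, n = 2 each, exact permutation p = 1). Among the 13 mitochondrial mRNAs, 3 were higher and 5 lower in the mutant of both sets, against 22.4% and 32.6% of all genes, and 5 differed in direction. Under a limit of 15% mitochondrial UMIs per cell, 5 were higher and 2 lower in both. The share over all filtered barcodes of the same libraries was 4.83%, 5.59%, 5.47% and 5.16%. With mitochondrial UMIs limited to under 15%, the shares were 2.73%, 3.98%, 3.64% and 3.66%, so both mutants lay above both wild types, in set B by 0.0149 points. The difference was then 0.635 points (exact permutation p = 0.333, the smallest this design allows). Without scrublet-called barcodes it was -0.412.

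With all enterochromaffin cells, no gene passed the test for mutant against wild type. The edgeR fit called 0 of 6975 genes (0%), with 384 at an unadjusted p under 0.05, and 0 (0%) with the set as a term, with 526 at that p. DESeq2 called 0, with 118 at an unadjusted p under 0.05. Without the Nts-high cells edgeR called 0, and 30 with the set as a term, 22 higher and 8 lower. With cells thinned to 3000 UMIs it called 0, and 10 with the set as a term, and with no filter on low counts 64. Leaving out wild type 2 gave 133 calls, and leaving out wild type 1, mutant 1 or mutant 2 gave 12, 10 and 20, each then with 1 library in an arm that is assumed to vary like the others. Levels below are values only, and ratios within a set compare 1 library with 1 library.

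Of 11 serotonin genes other than Tph1, 2 were higher and 4 lower in the mutant of both sets, and 0 passed the test, with 1 at an unadjusted p under 0.05. Tph1, which the choice fixed from below, stood at 2418, 1256, 2287 and 1582 CPM, lower in the mutant of both sets (log2 ratios -0.95 and -0.53). Slc18a1 differed by -0.46 and -0.22 and Ddc by -0.54 and -0.04. Over all genes tested, 22.4% were higher in the mutant of both sets and 32.6% lower, and the median log2 ratio was -0.15 in set A against -0.01 in set B. Granule and exocytosis genes, without Chga and Chgb, were lower in both sets for 13 of 23 and higher in both for 0. Pcsk1n, the inhibitor of the convertase Pcsk1, stood at 188, 84, 257 and 105 CPM (edgeR log2 ratio -1.18 ± 0.32, adjusted p = 0.84). Syt7 stood at 434, 121, 313 and 162 CPM (-1.31 ± 0.30), and the channel Trpc4 at 124, 61.1, 165 and 53.9 CPM (-1.26 ± 0.31, adjusted p = 0.84 for each). For these 3 the mutant libraries lay below both wild types. Without scrublet-called barcodes, 5 of these granule genes were higher and 7 lower in both sets, against 25% and 20.1% of all genes. With cells thinned to 3000 UMIs 3 were higher and 9 lower, against 26.4% and 23.5%. Of the 11 serotonin genes, 2 were higher and 2 lower in both sets without scrublet-called barcodes. With cells thinned, 5 of the 11 were higher and 0 lower, so their direction depended on the processing. Serpina1c, a serine protease inhibitor gene with close paralogs that make its count uncertain, was also named as lower by value, at -1.56 ± 0.47.

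Nuclear respiratory chain genes were mostly higher in the mutant libraries when all cells were used. Of 47, 32 were higher in the mutant of both sets and 0 lower in both, at medians of 0.27 and 0.12, and 0 passed the test. Ndufs8, a complex I subunit, differed by 0.79 and 0.88 and Uqcrfs1, a complex III subunit, by 0.56 and 0.71. Without scrublet-called barcodes 8 of the 47 were higher and 2 lower in both sets. Set A then had a median of -0.20, with 11 of 47 higher, and set B a median of 0.41, with 42 of 47 higher. Thinned to 3000 UMIs, the counts were 20 and 10. Of 15 integrated stress response genes tested, 4 were higher and 4 lower in both sets with all cells, against 22.4% and 32.6% of all genes. Without scrublet-called barcodes 2 were higher and 3 lower, against 25% and 20.1%. Thinned to 3000 UMIs, 8 were higher and 3 lower, against 26.4% and 23.5%.

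Markers of other cell types differed between the same libraries. All 5 cycling markers tested, 4 of 5 stem markers and 6 of 6 Paneth markers were higher in the mutant of both sets, against 22.4% of all genes. The cycling markers summed to 131, 448, 93.6 and 166 CPM and the Paneth markers to 1360, 20550, 44519 and 51432 CPM. A few cells held most UMIs of Defa24, a defensin, in 3 libraries but not in wild type 1: the 3 richest cells carried 17.3%, 84.6%, 94.3% and 93.9%. Without scrublet-called barcodes 1 of 5 cycling, 3 of 5 stem and 0 of 6 Paneth markers were higher in both sets, against 25% of all genes. Of these classes, only cycling markers had members lower in both sets, 2 of 5. Thinned to 3000 UMIs, 2 of 5 cycling, 4 of 5 stem and 4 of 6 Paneth markers were higher in both, against 26.4%, and 1 cycling marker was lower. The 5 genes named as higher by value were Defa35, Defa29, Clca3b, AW112010 and H2-Eb1, with edgeR log2 ratios of 1.32 to 2.04 and an adjusted p of 0.84 or more. Defa35 and Defa29 belong to a defensin family of near-identical copies, so their counts are uncertain. The part of scrublet-called barcodes, depth and marker RNA in the granule and respiratory values was not tested beyond these alternatives. Markers of T cells summed to 9.91, 53.4, 0 and 0 CPM, with Cd3e, Cd3d and Trac at 0 in every library. In mutant 1 the other listed markers, Cd3g, Gzma, Cd7 and Ptprc, each had UMIs. The same markers summed to 12.6, 14.1, 6.73 and 9.74 CPM in enterocyte-rich barcodes. In Tph1-low cells of the limited classes they summed to 1.94, 2.24, 0 and 1.94 CPM.

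**Figure D5:**
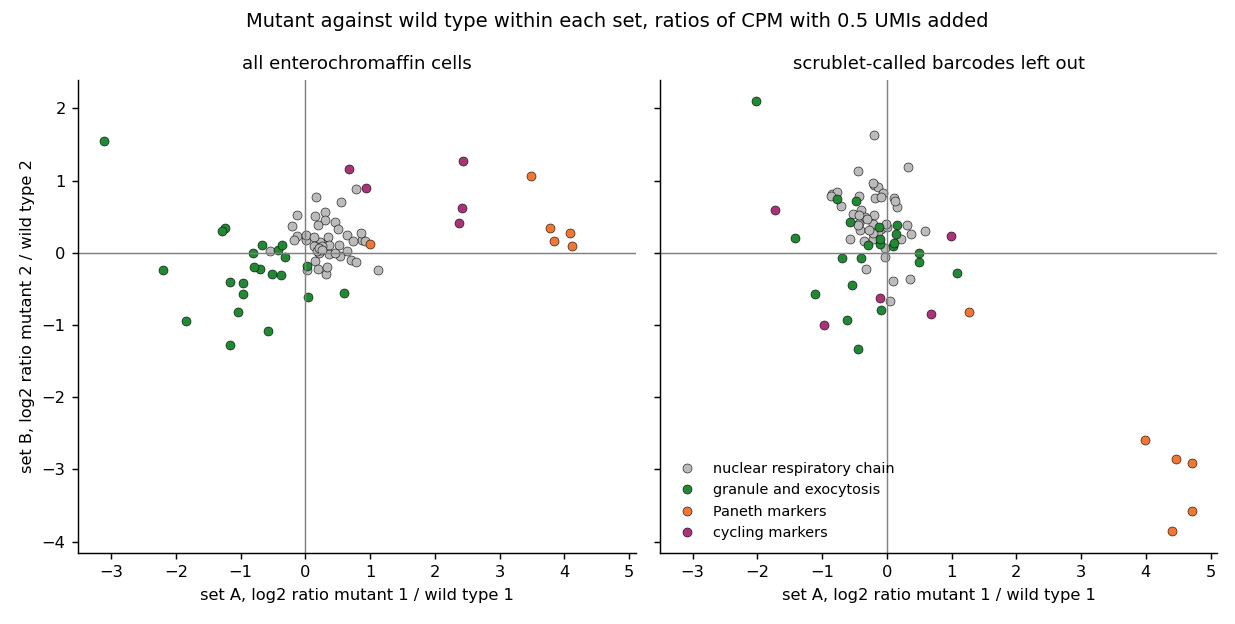
Log2 ratio of CPM, mutant against wild type, in set A (horizontal) and set B (vertical) for each gene of 4 lists in enterochromaffin cells, with 0.5 UMIs added; left all cells, right without scrublet-called barcodes. In the left panel 32 of 47 respiratory chain genes lie in the upper right and 13 of 23 granule genes, without Chga and Chgb, in the lower left; in the right panel 8 and 7 do.

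Peptide genes did not share a direction between the sets when all cells were used. Of 10 tested, 0 were higher and 0 lower in both sets, against 22.4% and 32.6% of all genes. Without Nts-high cells 1 was higher and 3 were lower in both, against 20.5% and 35.6% of all genes. Thinned to 3000 UMIs, 3 were higher and 0 lower, against 26.4% and 23.5%. Without scrublet-called barcodes 1 was higher and 0 lower, against 25% and 20.1%. Tac1 stood at 2574, 1945, 1328 and 1623 CPM (-0.02 ± 0.50), Reg4 at 2175, 4067, 7269 and 1939 CPM (-0.65 ± 0.78) and Sct at 8936, 1294, 3193 and 3562 CPM (-1.16 ± 0.78), each with overlap between genotypes. Nts stood at 38920, 8.91, 13.1 and 7095 CPM, high in the 2 libraries that hold Nts-high cells. Without those cells Sct stood at 3261, 1294, 3193 and 2417 CPM. Lmx1a stood at 944, 847, 1086 and 790 CPM, both mutants below both wild types, with a difference within its error (-0.24 ± 0.38).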

How the data were processed

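The deposited values are raw UMI counts per gene and barcode in 4 filtered 10x matrices, which the authors made with Cell Ranger, per the file headers in version 7.0.0 for set A but version 7.1.0 for set B. The genome was mm10, per the submitters' processing notes. Barcodes were filtered as given above, and enterochromaffin UMIs were summed per library, since cells are not replicates. Sums were tested with edgeR 4.0.16 (TMM, filterByExpr, quasi-likelihood test, Benjamini-Hochberg adjusted p under 0.05) in R 4.3.3, and DESeq2 1.42.0 was an alternative. The SE is the absolute log2 ratio divided by the square root of the F statistic. Ratios within a set or library add 0.5 UMIs to each sum. Shares were compared by exact permutation in scipy 1.17.1. Doublets were scored with scrublet in scanpy 1.11.5, whose automatic threshold marked from 0% to 18% of barcodes, so a fixed rate was used. Enterocyte-rich barcodes had at least 1% of UMIs from Alpi, Apoa1, Apoa4, Fabp1 and Rbp2 and under 2 chromogranin UMIs.

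The cells, gene lists, markers and tests were chosen with earlier results of these data known. Named genes are list members and markers with the smallest p, up to 12 genes per direction between classes with the largest ratio, at least 50 CPM and 1 sign in all 4 libraries, and, between genotypes, up to 10 per direction past the threshold. A genotype direction with fewer than 5 was filled to 5 by value with genes of at least 100 CPM and the largest smaller ratio of the 2 sets. Cartpt, Afp and Reg4 in the split without wild type 1 were named after their values were seen. Some genes that the rule names are not reported here. Replicate numbers are not in the labels. The sets pair libraries only by Cell Ranger version and title, so the set was a term in an alternative. Alternatives were other normalization, no filter, other cell limits, thinning, doublets left out, Nts-high cells left out and 1 library left out.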

Additional observations from a re-analysis of the deposited data

Results flagged for a closer look

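The sets went opposite ways in 3 measures of enterochromaffin cells, with 1 library per genotype in each set, so the difference between sets was not tested. As a share of filtered barcodes, mutant minus wild type was 0.144 percentage points (set A) against -0.067 (set B). As a share of barcodes with 2 or more chromogranin UMIs it was 12.2 (set A) against -3.13 (set B). With barcodes thinned to 3000 UMIs and shallower ones left out, that difference was 0.111 and 0.167. The mitochondrial share of their UMIs differed by 0.692 points (set A) against -0.563 (set B), and without scrublet-called barcodes by -0.045 and -0.78.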

How the results depend on the processing

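The difference in the share of filtered barcodes was -0.093 points after thinning, -0.0201 with Tph1 at 3 or more UMIs and -0.0376 without scrublet-called barcodes, and -0.181 to 0.258 with 1 library left out. Over chromogranin barcodes it ran from -0.481 to 9.58 with 1 library left out. The mitochondrial difference was -0.412 without scrublet-called barcodes and -0.663 to 0.792 with 1 library left out. Between genotypes, edgeR called 64 genes with no filter, 10 after thinning with the set as a term (a replicate block by set) and 30 without Nts-high cells in that blocked fit. The blocked fit on all cells called 0, and 10 to 133 were called with 1 library left out. Against Tph1-low cells, 996 genes were called after thinning, 1213 with 10 or more chromogranin UMIs and 708 by DESeq2 with that limit. With 1 library left out, 3184 to 4574 were called, or 788 to 1109 with that limit (932 without wild type 2, 1050 without wild type 1). With no library term (no replicate block) 3995 were called, and 70 in the Tac1 split. That split gave 56 by DESeq2, 138 with no filter, 180 without scrublet-called barcodes, 197 at 5000 UMIs and 49 to 119 with 1 library left out. Ratios near 0 turned. Between genotypes, the Tac1 log2 ratio was 0.0269 in the blocked fit, 0.0164 in DESeq2 with that block, 0.00863 with no filter, 0.233 without scrublet-called barcodes, 0.343 after thinning and 0.358 after thinning with the block. Lmx1a was at 0.00871, 0.0271 and 0.0659 without scrublet-called barcodes, after thinning, and after thinning with the block. With 1 library left out, the log2 ratio ran from -0.32 to 0.392 for Tac1, -10.9 to 8.08 for Nts, -1.32 to 0.658 for Reg4 and -0.44 to 0.00642 for Lmx1a. Sct against Tph1-low cells was 0.0775 without scrublet-called barcodes and -2.79 to 0.264 with 1 library left out, with -0.725 the lowest in the wider classes. Reg4 in the Tac1 split was 0.861 at 5000 UMIs and -1.54 to 0.362 with 1 library left out. The cause was not tested. Slc18a1, Lmx1a, Tac1 and Reg4 against Tph1-low cells and Fev in the Tac1 split kept their sign in every alternative run. Depth limits genes with few UMIs, such as Piezo2.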
